A study of Mus musculus with 12 samples.

Results

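The genes described here are 10 genes of the basement membrane: the laminin α chains Lama2, Lama4 and Lama5, the β chains Lamb1 and Lamb2, the γ chain Lamc1, the nidogens Nid1 and Nid2, and the heparan sulfate proteoglycans perlecan (Hspg2) and agrin (Agrn). They were chosen by name as the laminin chains and linkers of this matrix, out of 49585 genes in the count tables, and all 10 passed the filter on low counts that left 18648 genes for testing. They were measured by RNA sequencing in 4 cell populations sorted from the bone and bone marrow (BM) of wild-type male C57BL/6 mice aged 8 to 10 weeks, kept in steady state with no treatment, with 3 libraries of 2000 cells for each population. Every sort excluded blood cells, erythroid cells and endothelial cells by gating on CD45-Ter119-CD31- cells. Itga8+ MSCs (sorted as Itga8+Alcam+Sca-1- cells), Itga8- BLCs (bone-lining cells labelled as osteoblasts and sorted as Itga8-Alcam+Sca-1- cells) and Sca-1+ MSCs (Alcam-Sca-1+) came from bone fragments of femora, tibias and iliac bones digested with collagenase. CD51+CD140a+ MSCs came from flushed marrow digested with Accumax, so for any comparison with these cells the preparation and the population cannot be told apart. The labels do not say that the 3 libraries came from separate animals, so p-values measure only the spread between these libraries, which may be technical. In such bulk samples, fewer cells expressing a gene and less RNA per cell cannot be told apart.

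A basement membrane is a thin sheet of matrix that cells lay down beneath or around themselves. Laminins are its base layer. Each is a trimer of 1 α, 1 β and 1 γ chain that is assembled inside the cell, and the α chain carries the sites bound by integrins and dystroglycan, while the γ chain made by Lamc1 is shared by most laminins. Nidogens bind the γ chain and link the laminin sheet to the type IV collagen network, and perlecan and agrin fix heparan sulfate to it. Laminin α2 is best known from muscle fibres and peripheral nerve, and laminins α4 and α5 from vessel walls, including the sinusoids of the BM.

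The genes lie at separate sites in the mouse genome (GRCm38, the build also called mm10; GENCODE M21 annotation). Lama2 (chr10:26980036-27619758) and Lama4 (chr10:38965515-39110188) share chromosome 10. The β chain genes are Lamb1 (chr12:31265234-31329644) and Lamb2 (chr9:108479736-108490530), each with 33 exons in its longest transcript, and Lamc1 lies at chr1:153218922-153332786. The nidogens are at chr13:13437551-13512269 (Nid1) and chr14:19751265-19811787 (Nid2), and Lama5 at chr2:180176373-180225859. Hspg2 (chr4:137468769-137570630) and Agrn (chr4:156165290-156197488) share chromosome 4. All 10 are long genes: their exons together cover 5174 bases in Nid2 to 16338 bases in Lama2. In Nid2, 8.45% of the exonic bases lie opposite exons of Rtraf, and since the strand setting of the counting is not given in the sources used here, reads there cannot be assigned to one of the genes.

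The levels of the β chain genes relative to each other took a separate range in each population, so the sequences before their starts are shown. RefSeq promoter windows of GRCm38.p6 were at hand for 7 of the 10 genes, and not for Lama4, Lamc1 and Nid2. The first sequence is that before Lamb1 (chr12:31265043-31265233, plus strand) and the second that before Lamb2 (chr9:108479612-108479735, plus strand), each from the far end of the 250-base window to the base before the first annotated exon, with capitals marking the GC box (GGGCGG or its reverse complement CCGCCC).
Lamb1: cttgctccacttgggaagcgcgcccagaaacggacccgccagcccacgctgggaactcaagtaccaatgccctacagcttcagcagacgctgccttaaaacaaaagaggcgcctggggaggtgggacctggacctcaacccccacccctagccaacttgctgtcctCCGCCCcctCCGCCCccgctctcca
Lamb2: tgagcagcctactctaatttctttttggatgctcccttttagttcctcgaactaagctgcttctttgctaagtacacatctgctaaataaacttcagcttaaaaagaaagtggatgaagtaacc

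The RefSeq starts, at the ends of the windows, lie past the first annotated exon base of each gene. The Lamb1 window held 2 GC boxes, whose first bases lie 25 and 16 bases before the first exon base and 84 and 75 bases before the RefSeq start, and 1 CCAAT box (CCAAT or ATTGG). The window before Lamb2 held neither motif. On either strand, 32.7% of the 32851 windows of this length in the table held a GC box and 33.8% a CCAAT box. G and C made up 62.0% of the Lamb1 window and 43.6% of the Lamb2 window, against a median of 52.4% over all windows. A TATA box (TATAAA or TTTATA), found in 12.4% of all windows, was in none of the windows of the 7 genes.

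The gene counts of a library summed to between 17580677 and 31332475, and at these depths 3 counts, taken here as the floor, were worth 0.082 to 0.18 CPM (counts relative to the library size, scaled with TMM factors). Most of the sorting genes followed the labels. Itga8 was at 35.2 to 199 CPM in Itga8+ MSCs and at 0.398 to 4.17 CPM in Itga8- BLCs. Ly6a (Sca-1) was at 611 to 659 CPM in the Sca-1+ libraries and at no more than 35.7 CPM elsewhere. Alcam was at only 1.29 to 5.82 CPM in the Alcam+ libraries, and at no more than 0.221 CPM in the others. Of the osteoblast genes, Dmp1 was at 1634 to 2265 CPM in Itga8- BLCs, and Bglap, Bglap2, Sp7 and Alpl were also highest there. Ibsp was higher in CD51+CD140a+ MSCs, at 6819 to 16050 CPM against 2628 to 4681 CPM in Itga8- BLCs. Spp1 and Col1a1 in Itga8- BLCs overlapped other populations. Itga8 was also at 53.1 to 82.9 CPM in the CD51+CD140a+ libraries, which held Lepr at 5727 to 6739 CPM. The genes of the CD51 and CD140a gate did not set these cells apart from Sca-1+ MSCs, with Pdgfra (CD140a) at 682 to 867 CPM against 734.5 to 1019 CPM and Itgav (CD51) at 121 to 195 CPM against 126 to 150.3 CPM. Endothelial RNA was low, with Pecam1 (CD31) at 2.39 to 12.2 CPM and Cdh5 at no more than 4.85 CPM in the 12 libraries, and the 12 endothelial genes together at 23.3 to 123 CPM, highest in Sca-1+ MSCs through Tek. Single genes differed in order. Stab2, Vwf and Flt4 reached 25.3, 10.85 and 6.44 CPM in CD51+CD140a+ MSCs, against no more than 4.43, 4.63 and 1.99 CPM in the other populations. Egfl7 had its lowest mean there, at 0.967 to 1.45 CPM. The part of endothelial cells in the levels of Lama4 and Lama5 was not tested. The 10 mural cell genes together were at 150.4 to 663 CPM in the 12 libraries, but not evenly: Notch3 was at 61.7 to 168 CPM and Abcc9 at 85.2 to 112 CPM in the CD51+CD140a+ libraries, against no more than 3.61 and 13.9 CPM in the others, while Cspg4 was at 3.38 to 5.12 CPM there and at 47.5 CPM or more in the others. The part of mural cells in the differences of Lama4, Lamb1 and Lamc1 was not tested. A pair of libraries stood apart: Itga8+ replicate 2 and Itga8- replicate 3 held 0.546% and 0.359% of counts on mitochondrial genes, against no more than 0.0996% in the others, and Itga8+ replicate 2 held 8360 CPM of the 8 haematopoietic marker genes together, against 309 to 2550 CPM in the others. Between library totals alone and TMM scaling, the median over all genes of the log2 fold change moved from 0.34 to 0.08 for Itga8+ MSCs against Itga8- BLCs, and from -0.24 to 0.09 for Itga8- BLCs against CD51+CD140a+ MSCs.

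Long transcripts were under-represented in some Alcam+ libraries, and the summed level of the 10 genes followed this balance. The balance is the median log2 CPM, relative to each gene's mean over the 12 libraries, of genes with at least 5000 exonic bases, minus that of genes with at most 2000. It was -0.135, -1.65 and 0.383 in Itga8+ replicates 1, 2 and 3, where the 10 genes summed to 914, 235 and 3416 CPM. In Itga8- BLCs it was -0.415, 0.335 and -1.11, and the sums were 398, 1406 and 170 CPM (169.7). In the 6 libraries of Sca-1+ and CD51+CD140a+ MSCs it lay between 0.314 and 0.594, and the sums between 2520 and 3725 CPM. The part of this balance in the differences between the populations was not tested; an alternative fit with an offset for each library's trend with gene length was run, and the calls that it adds are given after the counts of calls.

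**Figure D1:**
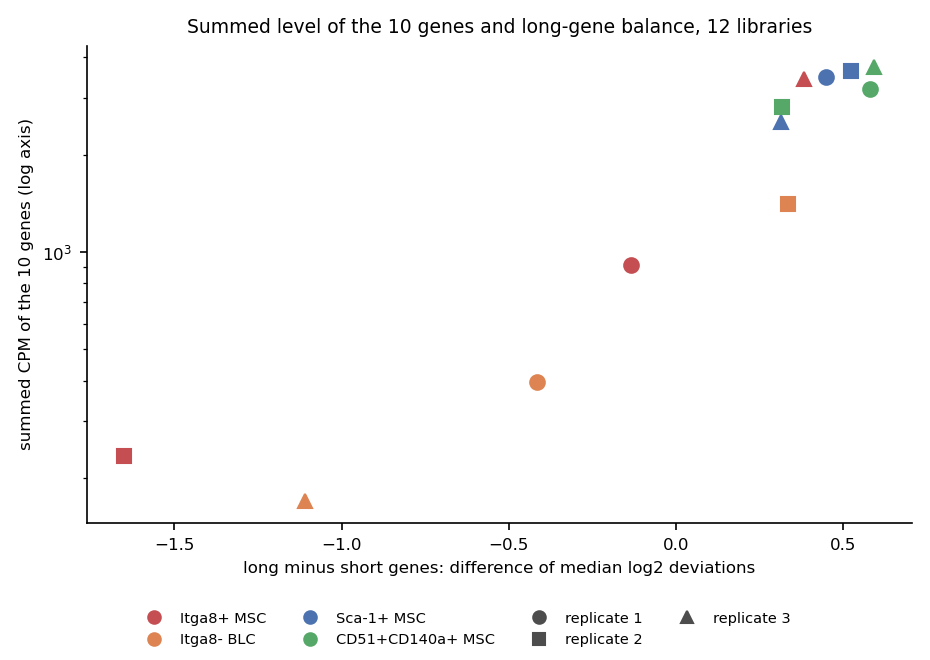
Summed CPM of the 10 genes (log axis) against the balance of long over short genes (difference of median log2 deviations) in the 12 libraries, coloured by population and marked by replicate number. Itga8+ replicate 2 and Itga8- replicate 3 lie at the lower left, at 235 and 170 CPM, and the 6 Sca-1+ and CD51+CD140a+ libraries at the upper right, at 2520 CPM or more.

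In comparisons across all genes, 8 of the 10 genes differed among the 4 populations (edgeR quasi-likelihood F-test, Benjamini-Hochberg adjusted p under 0.1), where 47.5% of all genes tested did. Lamb2 and Hspg2 did not pass, with adjusted p of 0.216 and 0.476. Lamb1 had the smallest adjusted p, 0.000951, followed by Lama4 with 0.00188. Each pair of populations was then compared in the same fit, with a gene called at an adjusted p under 0.1 and a fold change above 2.

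Lama4 and Lamb1 were called lower in both Alcam+ populations against both others, and 3 further genes (Lama2, Lamc1 and Nid1) were called lower in Itga8- BLCs against both. Against Sca-1+ MSCs, Itga8- BLCs had 5 genes lower (Lama2, Lama4, Lamb1, Lamc1 and Nid1) and 0 higher, where 11.9% of all genes were called lower and 14.5% higher (26.4% in either direction). Against CD51+CD140a+ MSCs, 6 were lower (the same genes and Lama5) and 0 higher, against 14.9% and 20.4% of all genes. Itga8+ MSCs had 2 genes lower (Lama4 and Lamb1) and 1 higher (Nid2) than Sca-1+ MSCs, against 8.89% and 12.9%. They had 4 lower (Lama4, Lamb1, Lamc1 and Agrn) and 0 higher than CD51+CD140a+ MSCs, against 14.3% and 21.2% (35.6% in either direction). Between Sca-1+ and CD51+CD140a+ MSCs, 1 gene (Lama2) was higher and 1 (Nid2) lower in Sca-1+ MSCs, against 11.2% and 9.3% (20.5% in either direction). These comparisons share libraries with each other. With the length offset, every one of these calls was kept. Against CD51+CD140a+ MSCs it gave 1 higher and 5 lower genes in Itga8+ MSCs, with Lama2 (log2 fold change 1.36, edgeR adjusted p of 0.0432) and Nid1 added, and 1 higher and 6 lower in Itga8- BLCs, with Hspg2 added as higher (2.14, edgeR adjusted p of 0.0372). It gave 1 higher and 4 lower genes in Itga8+ against Sca-1+ MSCs, 0 and 6 in Itga8- BLCs against the latter, and 1 and 3 in Sca-1+ against CD51+CD140a+ MSCs. The share of all genes called with the length offset was not computed, so the added calls cannot be set against it.

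Between the Alcam+ populations, edgeR called 0 of the 10 genes, where 3.82% of all genes were called, 1.66% higher and 2.16% lower in Itga8+ MSCs. At an unadjusted p under 0.05, 3 genes (Lama2, Lamc1 and Nid1) were higher in Itga8+ MSCs. DESeq2 and the fit with the length offset each called these 3 genes, limma-trend called 1 (Lama2), and the fit without the pair of libraries rich in mitochondrial counts called 1 (Nid1). The libraries of the compared populations did not overlap for 1 gene between Itga8+ MSCs and Itga8- BLCs (14.2% of all genes), 4 between Itga8+ and Sca-1+ MSCs (37.6%), and 6 between CD51+CD140a+ and Itga8+ MSCs (44.4%). They did not overlap for 6 genes between Itga8- BLCs and Sca-1+ MSCs (45.7%), 7 between CD51+CD140a+ MSCs and Itga8- BLCs (49.8%), and 8 between Sca-1+ and CD51+CD140a+ MSCs (45.9%).

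**Figure D2:**
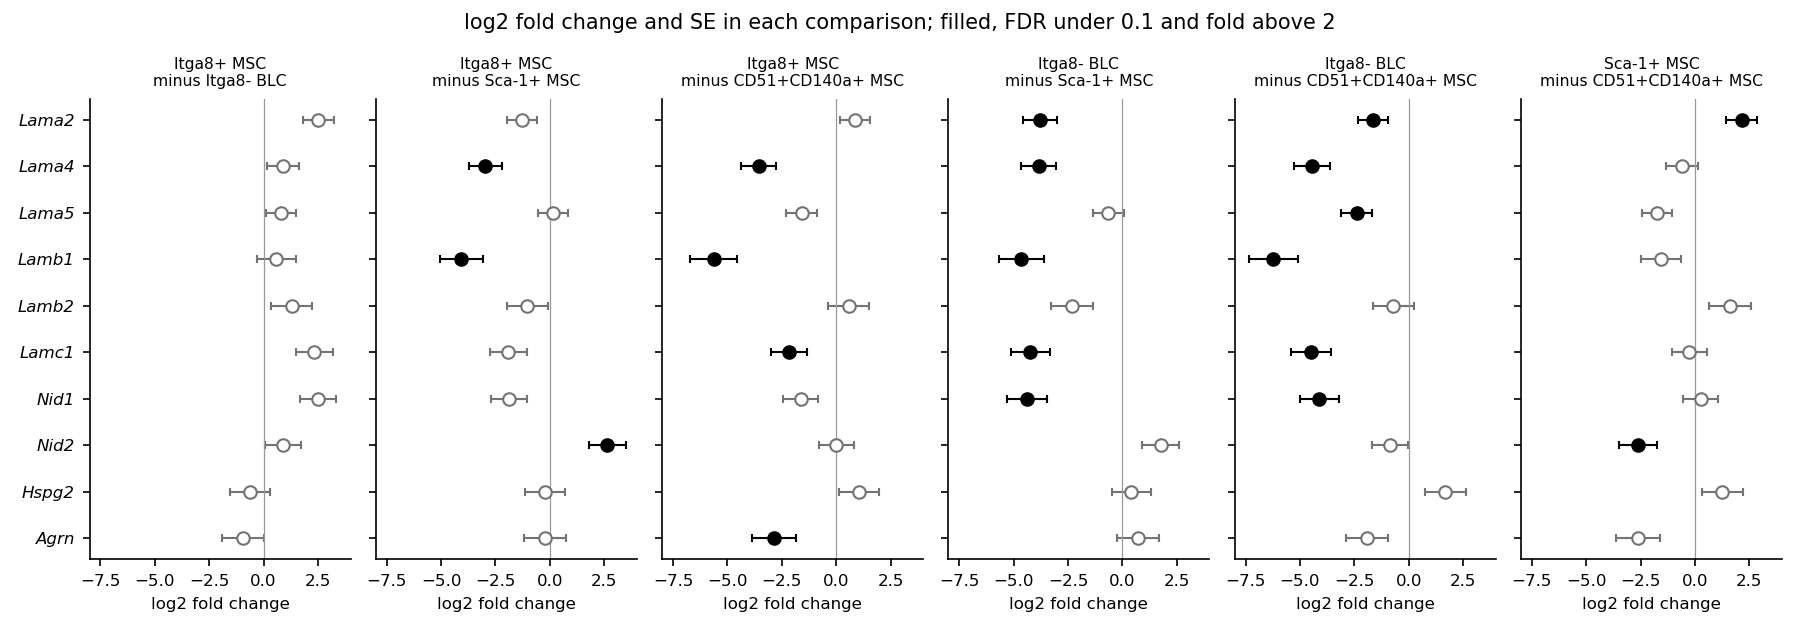
Fitted log2 fold change (x axis, with SE) of each gene in the 6 comparisons, first population minus second. Filled points were called (adjusted p under 0.1 and fold above 2): 0, 3, 4, 5, 6 and 2 genes from left to right, most of them to the left of 0.

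Of the 20 calls over all pairs, 14 were kept in every alternative tried, and 0 changed direction. The calls lost under at least 1 alternative were Nid2 and Lama2 between Sca-1+ and CD51+CD140a+ MSCs, Nid2 between Itga8+ and Sca-1+ MSCs, Lamc1 and Agrn between Itga8+ and CD51+CD140a+ MSCs, and Lama2 between Itga8- BLCs and CD51+CD140a+ MSCs. The wide spread of the Alcam+ libraries enters the shared fit. When only Sca-1+ and CD51+CD140a+ MSCs were fitted, 7 of the 10 genes were called between them, 3 higher and 4 lower in Sca-1+ MSCs, where 13.5% of the 17184 genes in that fit were called higher and 13.6% lower (27.1% in all).

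Lamb1 and Lamb2 encode the β chains of most laminins, of which a trimer takes 1. Lamb1 was at 5.10, 1.82 and 35.7 CPM in the 3 Itga8+ libraries and at 4.28, 20.99 and 3.06 CPM in the Itga8- libraries. It was at 265, 273 and 178 CPM in the Sca-1+ libraries and at 697, 616 and 806 CPM in the CD51+CD140a+ libraries. Every Alcam+ library was below every Sca-1+ library, and every Sca-1+ library below every CD51+CD140a+ library. The log2 fold change of Lamb1 was -4.07 ± 1.00 (SE, n = 3 libraries a population) in Itga8+ MSCs with Sca-1+ MSCs as the reference and -5.64 ± 1.08 against CD51+CD140a+ MSCs, with edgeR adjusted p of 0.018 and 0.00232. In Itga8- BLCs it was -4.65 ± 1.03 and -6.22 ± 1.11 against the same populations, with edgeR adjusted p of 0.00823 and 0.00138. Without the pair of libraries rich in mitochondrial counts, the log2 fold change of Lamb1 between Itga8+ and CD51+CD140a+ MSCs was -5.10, with an edgeR adjusted p of 0.00191.

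Lamb2, the β chain known from the neuromuscular junction and the glomerulus, was high in every population. It was at 212, 59.9 and 1335 CPM in Itga8+ MSCs and at 125, 490 (489.8) and 42.9 CPM in Itga8- BLCs. Its level was 1141, 1211 and 936 CPM in the Sca-1+ libraries and 343, 287 and 438 CPM in the CD51+CD140a+ libraries. The Itga8+ libraries spanned both of the latter ranges, and 0 of the 6 comparisons was called. In Itga8- BLCs against Sca-1+ MSCs, whose libraries do not overlap, the log2 fold change of Lamb2 was -2.32 with an edgeR adjusted p of 0.113, and it passed in DESeq2 (0.0357) and limma-trend (0.0416). The difference between Sca-1+ and CD51+CD140a+ MSCs, whose libraries do not overlap, was a log2 fold change of 1.62 ± 0.96 with an edgeR adjusted p of 0.313 in the fit of all 12 libraries. In the fit of those populations alone, the Lamb2 difference was 1.61 with an edgeR adjusted p of 0.00018, and Lamb1 differed in the opposite direction, by -1.58 with an edgeR adjusted p of 0.000296.

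Lamc1, the γ chain, was at 46.1, 22.6 and 298 CPM in Itga8+ MSCs and at 16.8, 48.6 and 7.67 CPM in Itga8- BLCs. It was at 478, 542 and 351 CPM in the Sca-1+ libraries and at 605, 503 and 543 CPM in the CD51+CD140a+ libraries. All 6 Alcam+ libraries were below the other 6. The log2 fold change in Itga8- BLCs was -4.23 ± 0.92 with Sca-1+ MSCs as the reference and -4.50 ± 0.93 against CD51+CD140a+ MSCs, with edgeR adjusted p of 0.00747 and 0.00359. In Itga8+ MSCs the log2 fold change against CD51+CD140a+ MSCs was -2.17 ± 0.84 with an edgeR adjusted p of 0.0701. That Lamc1 call was lost on leaving out Itga8+ replicate 1 or 2, or any 1 of the CD51+CD140a+ libraries, with log2 fold changes of -1.78, -1.66, -2.10, -2.23 and -2.18 in that order. It was also lost at an FDR of 0.05, with the replicate number as a block and in the fit of Itga8+ and CD51+CD140a+ MSCs alone.

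**Figure D3:**
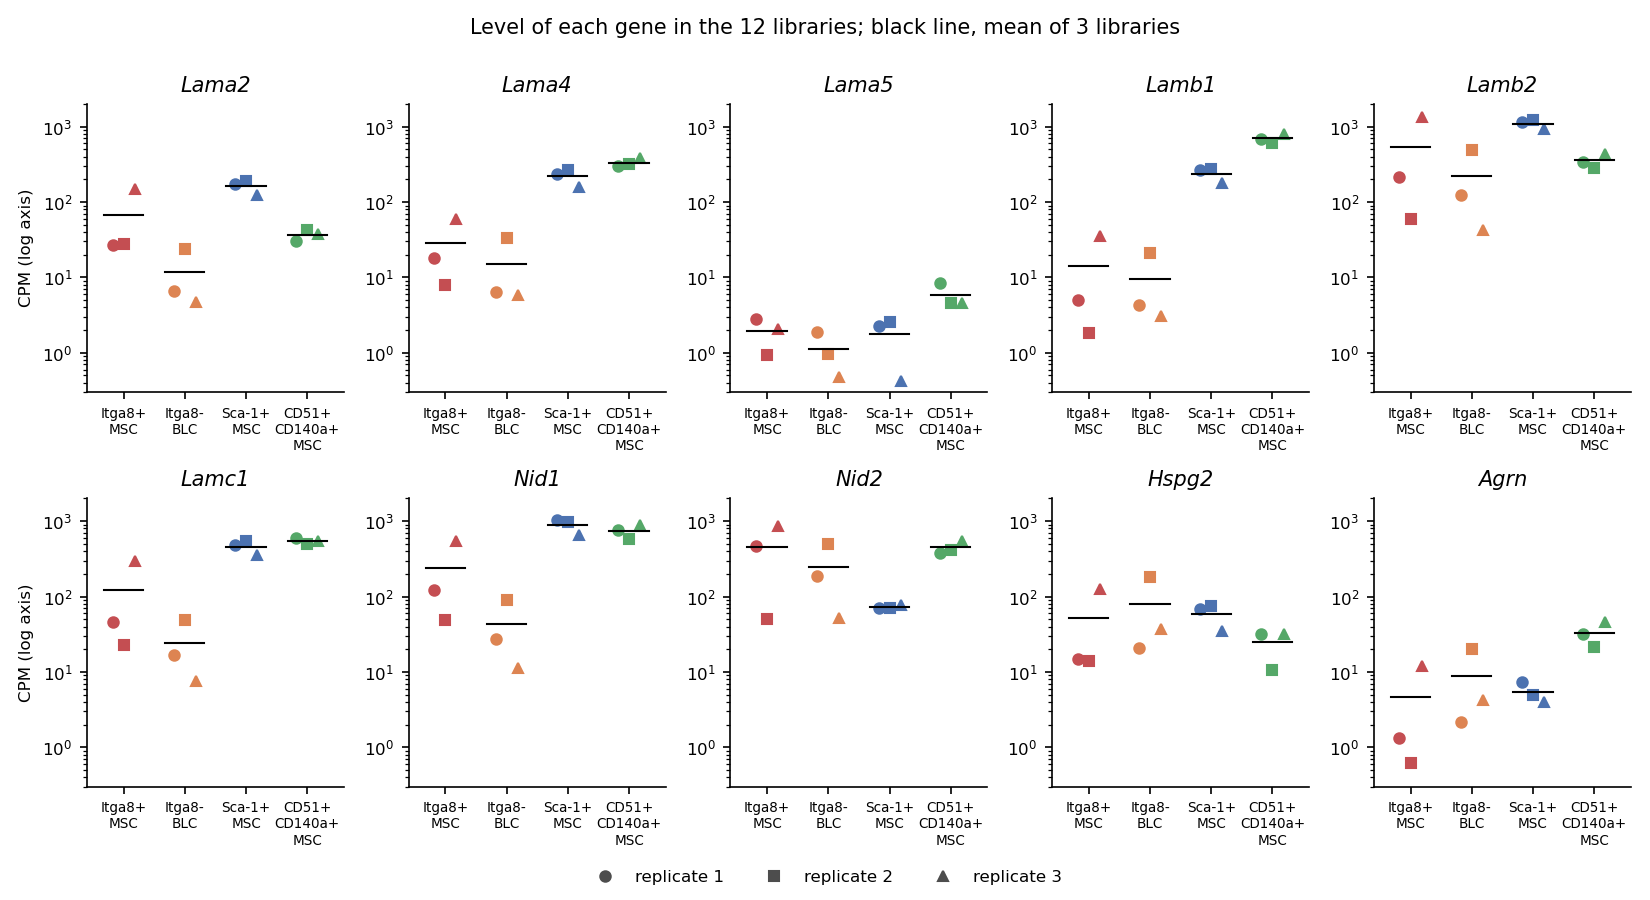
CPM of each of the 10 genes (log axis) in the 12 libraries, grouped by population on the x axis; symbols mark the replicate number and black lines the mean of 3 libraries. Lamb1, Lama4 and Lamc1 were higher in each Sca-1+ and CD51+CD140a+ library than in any Alcam+ library, while Nid2 was lowest on average in Sca-1+ MSCs.

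Among the α chains, Lama4 followed Lamb1. It was at 18.3, 7.84 and 58.9 CPM in Itga8+ MSCs and at 6.42, 33.5 and 5.82 CPM in Itga8- BLCs. Levels were 238, 267 and 158 CPM in the Sca-1+ libraries and 305, 315 and 381 CPM in the CD51+CD140a+ libraries. Each Alcam+ library was again below the other 6. The log2 fold changes of Lama4 were -2.96 ± 0.78 and -3.56 ± 0.80 in Itga8+ MSCs against Sca-1+ and CD51+CD140a+ MSCs (edgeR adjusted p of 0.0241 and 0.00605). They were -3.85 ± 0.81 and -4.45 ± 0.83 in Itga8- BLCs (edgeR adjusted p of 0.00613 and 0.00187).

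Lama2, the α chain of muscle and nerve laminins, was ordered differently. It was at 172, 192 and 124 CPM in the Sca-1+ libraries and at only 30.1, 43.0 and 37.8 CPM in the CD51+CD140a+ libraries. It was at 26.8, 28.1 and 147 CPM in Itga8+ MSCs and at 6.67, 23.9 and 4.74 CPM in Itga8- BLCs. Lama2 was the gene of the 10 with the lowest Itga8+ library above the highest Itga8- library, and this difference had a log2 fold change of 2.52 ± 0.72, an unadjusted p of 0.00451 and an edgeR adjusted p of 0.11. DESeq2 gave the Lama2 difference an adjusted p of 0.00742, and the edgeR fit with the length offset 0.0127, while the edgeR fit of these populations alone gave 0.411. Without Itga8+ replicate 3 the Lama2 difference was 1.22, with an edgeR adjusted p of 0.342. In Itga8- BLCs, Lama2 had a log2 fold change of -3.79 ± 0.76 against Sca-1+ MSCs (edgeR adjusted p of 0.0049) and of -1.65 ± 0.70 against CD51+CD140a+ MSCs (edgeR adjusted p of 0.0952). The latter call was lost on leaving out Itga8- replicate 1 or 3 or any Sca-1+ or CD51+CD140a+ library, with log2 fold changes of -1.78 to -1.28. It was also lost at an FDR of 0.05, with the replicate number as a block (-1.74, edgeR adjusted p of 0.112) and without the pair of libraries rich in mitochondrial counts (-1.28, edgeR adjusted p of 0.162). Lama2 was higher in Sca-1+ than in CD51+CD140a+ MSCs by 2.14 ± 0.71 on the log2 scale (edgeR adjusted p of 0.0602), a call that was lost at an FDR of 0.05 and on leaving out Sca-1+ replicate 1 or 2, or any CD51+CD140a+ library, with log2 fold changes of 2.00 to 2.26.

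Schwann cells and muscle fibres are among the cells that make laminin α2, so their markers are given beside it. The 8 Schwann cell genes summed to 202 to 374 CPM in Itga8+ MSCs, 224 to 293 CPM in Itga8- BLCs, and no more than 17.0 CPM in the other populations. Most of the sum in Itga8+ MSCs was Ncmap, at 188 to 365 CPM, while Sox10 was at no more than 2.25 CPM. The 8 skeletal muscle genes summed to 17.7 to 44.3 CPM in Itga8+ MSCs and 6.48 to 12.7 CPM in Itga8- BLCs. Of them Acta1 was at 7.32 to 22.8 CPM in the Itga8+ libraries, 0.548 to 8.34 CPM in the Itga8- libraries and no more than 0.885 CPM elsewhere, and Ckm at 1.71 to 2.43 CPM against 0.24 to 0.896 CPM, while Myh4 was at 0 in the 3 Itga8+ libraries. Their part in the Lama2 levels was not tested.

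Lama5, an α chain of epithelial and vascular basement membranes, had the lowest mean TPM (counts per exonic base, scaled to the same sum in every library) of the 10 genes in each population. It lay between 0.422 and 2.82 CPM in the 9 libraries from bone, and at 8.50, 4.56 and 4.54 CPM in the CD51+CD140a+ libraries. All 3 CD51+CD140a+ libraries were above the other 9, though each stayed below 10 CPM. The log2 fold change of Lama5 in Itga8- BLCs against CD51+CD140a+ MSCs was -2.38 ± 0.72 with an edgeR adjusted p of 0.0257.

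The nidogens moved apart from each other. Nid1, the broadly made nidogen, was at 124, 49.0 and 549 CPM in Itga8+ MSCs and at 27.2, 89.3 and 11.4 CPM in Itga8- BLCs. It was at 1031, 977 and 658 CPM in the Sca-1+ libraries and at 754, 584 and 889 CPM in the CD51+CD140a+ libraries. The Itga8- libraries did not reach the lowest of the latter 6, nor did the Itga8+ libraries. The log2 fold change of Nid1 in Itga8- BLCs was -4.38 ± 0.91 with Sca-1+ MSCs as the reference and -4.12 ± 0.90 against CD51+CD140a+ MSCs, with edgeR adjusted p of 0.00576 and 0.00491. In Itga8+ MSCs the Nid1 differences were -1.89 ± 0.82 and -1.63 ± 0.81, with edgeR adjusted p of 0.134 and 0.146, and passed in both DESeq2 (0.06 and 0.0954) and limma-trend (0.044 and 0.0462).

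Nid2 had its lowest mean and its smallest spread in Sca-1+ MSCs, at 70.05, 71.0 and 77.2 CPM. It was at 462, 49.97 and 854 CPM in Itga8+ MSCs, at 186, 499 and 51.9 CPM in Itga8- BLCs, and at 383, 420 (420.3) and 548 CPM in the CD51+CD140a+ libraries. The low libraries of both Alcam+ populations, the pair rich in mitochondrial counts, were the only Alcam+ libraries under the Sca-1+ range. Nid2 was higher in Itga8+ than in Sca-1+ MSCs, with a log2 fold change of 2.65 ± 0.87 (edgeR adjusted p of 0.0595) and lower in Sca-1+ than in CD51+CD140a+ MSCs by a log2 fold change of -2.63 ± 0.87 (edgeR adjusted p of 0.0581). Without the pair rich in mitochondrial counts, these Nid2 differences were 3.20 and -2.63, with edgeR adjusted p of 0.000458 and 0.00041, and Nid2 was also called higher in Itga8- BLCs than in Sca-1+ MSCs, by 2.23 (edgeR adjusted p of 0.00226). In limma-trend the Itga8+ against Sca-1+ difference of Nid2 was 1.89 and not called (adjusted p of 0.168), and with the replicate number as a block it was 2.62 (edgeR adjusted p of 0.124). On leaving out Itga8+ replicate 3, the library with the highest level, the Itga8+ against Sca-1+ difference of Nid2 was 1.80 and no longer called. It was also not called on leaving out Itga8+ replicate 1 or any Sca-1+ library, at 2.62 to 2.69, nor was the Sca-1+ against CD51+CD140a+ difference on leaving out any Sca-1+ library or CD51+CD140a+ replicate 3, at -2.68 to -2.47. The Sca-1+ against CD51+CD140a+ call of Nid2 was also lost with the replicate number as a block, and both Nid2 calls at an FDR of 0.05.

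Perlecan and agrin both carry heparan sulfate, and agrin is also the signal that clusters acetylcholine receptors at the neuromuscular junction. Hspg2 was at 14.8, 14.0 and 125 CPM in Itga8+ MSCs, at 20.7, 180.0 and 37.5 CPM in Itga8- BLCs, at 67.6, 76.1 and 35.0 CPM in the Sca-1+ libraries, and at 31.9, 10.5 and 32.02 CPM in the CD51+CD140a+ libraries. The Alcam+ libraries overlapped the ranges of both others, and Hspg2 was called in 0 comparisons. Agrn was at 32.1, 21.7 and 45.8 CPM in the CD51+CD140a+ libraries and at no more than 20.1 CPM in each library of the other populations. In Itga8+ MSCs it was at 1.34, 0.623 and 11.9 CPM, in Itga8- BLCs at 2.14, 20.1 and 4.197 CPM, and in Sca-1+ MSCs at 7.25, 4.93 and 3.98 CPM. Its log2 fold change in Itga8+ MSCs against CD51+CD140a+ MSCs was -2.85 ± 1.02 with an edgeR adjusted p of 0.0534, and the Agrn call was lost on leaving out Itga8+ replicate 1 or 2 or CD51+CD140a+ replicate 3, at -2.41, -2.31 and -2.55.

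The levels of single genes varied widely between libraries of one Alcam+ population, so genes were also compared with a partner within the same library, which does not depend on the scaling of the library. For 5 partner ratios, the differences among the 4 populations were tested with an exact permutation test of the F statistic over all 369600 divisions of the 12 libraries into 4 groups of 3, with Benjamini-Hochberg adjustment over the 5. Between a pair of populations, 3 libraries against 3 cannot give a p under 0.1, so pairs are described by whether their libraries overlap.

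The counts of Lamb2 over those of Lamb1 separated all 6 pairs of populations. The ratio was 41.6, 32.9 and 37.4 in the 3 Itga8+ libraries, although the level of Lamb2 itself was 212, 59.9 and 1335 CPM in them. It was 29.2, 23.3 and 14.0 in Itga8- BLCs, 4.31, 4.44 and 5.26 in the Sca-1+ libraries, and 0.492, 0.467 and 0.544 in the CD51+CD140a+ libraries. The ratio thus fell step by step from Itga8+ MSCs to CD51+CD140a+ MSCs with no overlap, with an exact permutation p of 6.49e-05, the smallest this design can give (adjusted p = 0.000162). The highest and lowest population means lay 6.198 apart on the log2 scale, or 73.4-fold.

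The counts of Nid2 over those of Nid1 also separated all 6 pairs, in another order. The ratio was 6.83, 5.59 and 4.56 in Itga8- BLCs, 3.73, 1.02 and 1.56 in Itga8+ MSCs, 0.509, 0.720 and 0.617 in the CD51+CD140a+ libraries, and 0.0679, 0.0727 and 0.117 in Sca-1+ MSCs. Nid2 reads outnumbered Nid1 reads in all 6 Alcam+ libraries and in none of the other 6. In Itga8+ replicate 2 the margin was small, with counts of 962 for Nid2 and 943 for Nid1. Rtraf, whose exons lie opposite some of Nid2, had 553 to 2400 counts in a library, so the order in that library is not settled. The means of the highest and lowest populations differed by 6.06 on the log2 scale, or 66.8-fold, with an exact permutation p of 6.49e-05 (adjusted p = 0.000162).

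The counts of Lama2 over those of Lama4 were 1.46, 3.58 and 2.50 in Itga8+ MSCs, 1.04, 0.712 and 0.814 in Itga8- BLCs, 0.724, 0.721 and 0.783 in the Sca-1+ libraries, and 0.0989, 0.136 and 0.0991 in the CD51+CD140a+ libraries. Every Itga8+ library was above every library of the other populations, and every CD51+CD140a+ library below them. Itga8- BLCs and Sca-1+ MSCs overlapped, and the other 5 pairs did not (exact permutation p = 0.00026, adjusted p = 0.000433). The Hspg2 over Agrn ratio was between 8.78 and 22.4 in the 9 libraries from bone and 0.992, 0.484 and 0.700 in the CD51+CD140a+ libraries (exact permutation p = 0.00506, adjusted p = 0.00633). The populations from bone overlapped in 2 of their 3 pairs. The Lama4 over Lama5 ratio was the least even, with 3.40, 34.4 and 12.1 in Itga8- BLCs and 105, 103 and 375 in Sca-1+ MSCs, where Lama5 counts were few (exact permutation p = 0.0089, adjusted p = 0.0089).

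**Figure D4:**
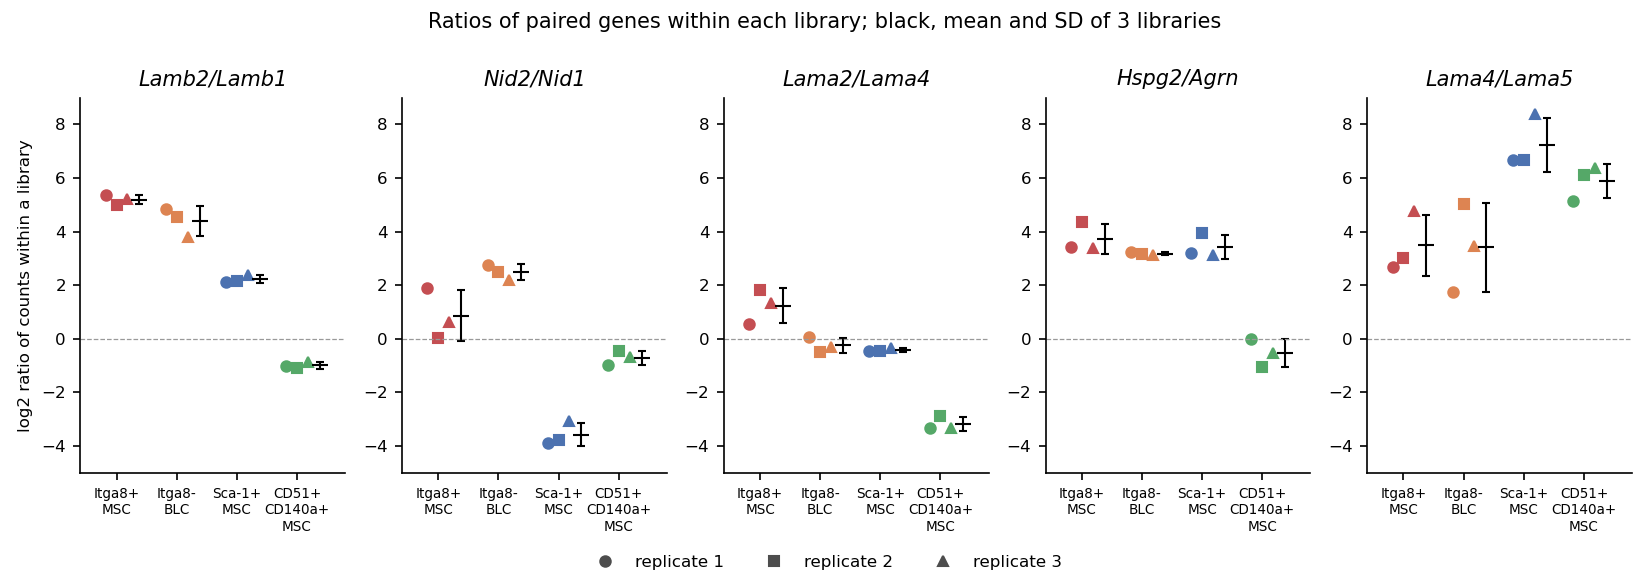
log2 ratio of the counts of paired genes within each library, by population; symbols mark replicates and black bars the mean and SD of 3 libraries, and the dashed line is a ratio of 1. The 4 populations take separate ranges for Lamb2/Lamb1, from a mean of 5.20 in Itga8+ MSCs to -1.0 in CD51+CD140a+ MSCs, and for Nid2/Nid1.

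All 5 ratios stayed under an adjusted p of 0.05 on leaving out each of the 12 libraries in turn. The highest adjusted p was 0.000325 for Lamb2/Lamb1, 0.00179 for Nid2/Nid1, 0.00184 for Lama2/Lama4, 0.0157 for Hspg2/Agrn and 0.042 for Lama4/Lama5. The genes of a pair differ in length, with exons of 9917 and 6082 bases in Lamb1 and Lamb2 and of 6943 and 5174 bases in Nid1 and Nid2. Lama2 and Lama4 cover 16338 and 12068 bases. The part of the length balance in the ratios was not tested.

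Levels of different genes were compared in TPM. Per length, Lamb2 made up 98.4% ± 0.19 (SD, n = 3) of the summed TPM of Lamb1 and Lamb2 in Itga8+ MSCs, 97.1% ± 1.12 in Itga8- BLCs, 88.3% ± 1.08 for Sca-1+ MSCs, but 44.9% ± 1.93 in the CD51+CD140a+ libraries. The mean Lamb2 level was 326 TPM in the Itga8+ and 235 TPM in the CD51+CD140a+ libraries, and the mean Lamb1 level was 5.29 and 286 TPM. A further β chain gene, Lamb3, at no more than 13.3 CPM in each library, is not in these shares. Lamb2 thus took nearly all of the RNA of this pair in the Alcam+ populations, while Lamb1 exceeded Lamb2 in CD51+CD140a+ MSCs. With the longest transcript as length, the Lamb2 share lay 63.5 percentage points lower in CD51+CD140a+ than in Itga8+ MSCs, against 53.5 with the union of exons.

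Of the α chains, Lama2 made up 60.8% ± 11.3 of the summed TPM of Lama2, Lama4 and Lama5 in Itga8+ MSCs, 35.4% ± 1.56 in Itga8- BLCs, 35.2% ± 1.16 for Sca-1+ MSCs and 7.47% ± 1.35 for the CD51+CD140a+ libraries (SD, n = 3). Lama4 made up 35.3% ± 9.03, 57.2% ± 8.26, 64.3% ± 0.88 and 90.8% ± 1.25 in the same order. Lama2 was the main α chain RNA in 2 of the 3 Itga8+ libraries by a wide margin, with 70.1% and 64.01%, and made up 48.1% in replicate 1. Lama5 did not exceed 15.0% in any library, and its largest share was in Itga8- replicate 1. Lama1, at 17.4 to 40.0 CPM in the CD51+CD140a+ libraries and no more than 1.07 CPM in the others, is not in these shares, so those of CD51+CD140a+ MSCs are of the 3 named chains and not of all α chains. These shares are descriptions with no test.

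**Figure D5:**
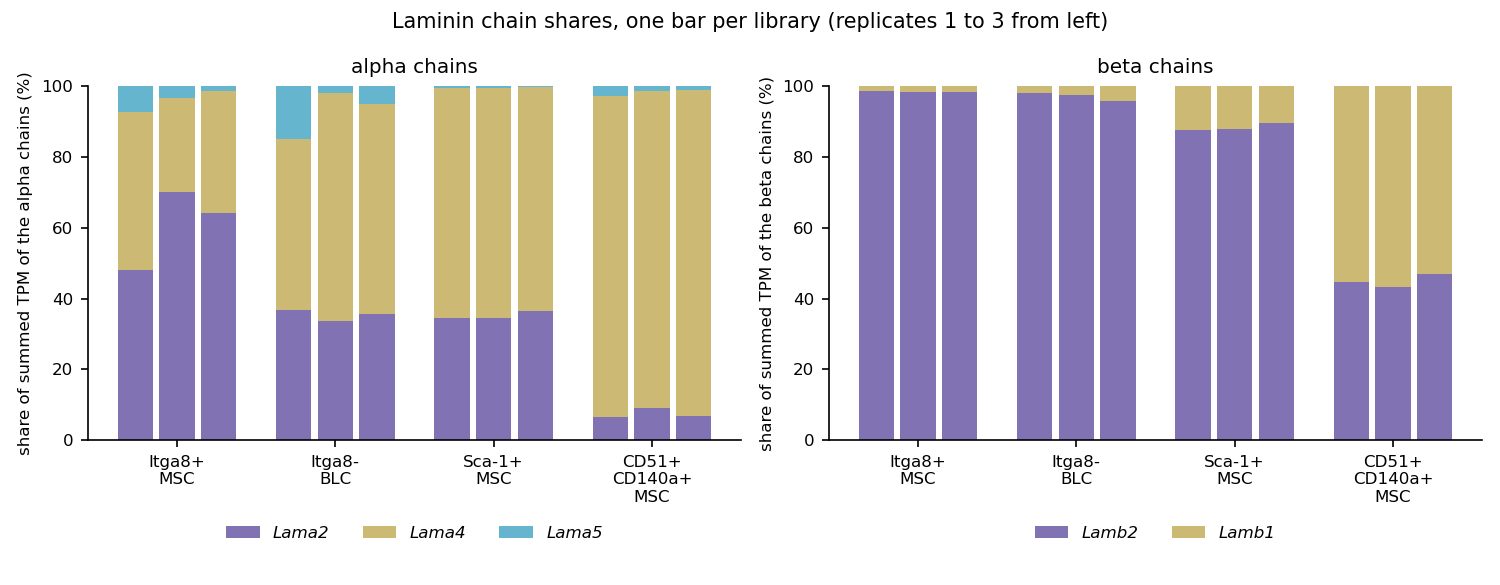
Share of each laminin α chain (left) and β chain (right) in the summed TPM of the chains drawn, as a percentage from 0 to 100, with 1 bar for each of the 12 libraries. Lamb2 takes 95.8% to 98.5% in the Alcam+ libraries and 43.2% to 47.0% in the CD51+CD140a+ libraries, and Lama2 gives way to Lama4 from Itga8+ MSCs to CD51+CD140a+ MSCs.

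A trimer takes 1 γ chain for each β chain, and the TPM of Lamc1 per summed TPM of Lamb1 and Lamb2 was below 1 in each library. It was 0.158, 0.272 and 0.162 in Itga8+ MSCs, 0.0969, 0.0710 and 0.126 in Itga8- BLCs, 0.270, 0.289 and 0.247 in the Sca-1+ libraries, and 0.578, 0.556 and 0.428 in the CD51+CD140a+ libraries. Lamc1 was thus lowest against the β chains in Itga8- BLCs and highest in CD51+CD140a+ MSCs. Per summed TPM of the same 3 α chains the mean was 1.77 ± 0.73, 1.45 ± 0.36, 1.96 ± 0.08 and 2.21 ± 0.37 (SD, n = 3) in the 4 populations in the same order, and these ranges overlapped between all but Itga8- BLCs and the last 2 populations.

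Genes whose levels were most like those of a member were sought over the 12 libraries by Pearson's r of log2 CPM, among 10564 genes with at least 10 CPM in 1 population. The points share libraries and their length balance, so these values are descriptions. Lamc1 and Nid1 were each other's nearest gene, with an r of 0.99. Lama4 and Lamb1 had an r of 0.985 with each other, and the gene nearest to Lama4 was Abca9 (0.996) and that nearest to Lamb1 was Akap12 (0.993), which was also next nearest to Lama4. Lama2 was nearest to Thbs2 (0.971), which encodes a secreted thrombospondin, Lamb2 to Esyt2 (0.979), Nid2 to Lpin1 (0.98), Hspg2 to Pkd1 (0.954), Agrn to Tor1b (0.963) and Lama5 to Rexo1 (0.886). Lama2 and Nid2 were nearly unrelated, with an r of 0.01.

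The other laminin chains were not called between Itga8+ MSCs, Itga8- BLCs and Sca-1+ MSCs (0 of 5 in each of these 3 comparisons). With CD51+CD140a+ MSCs as the reference, 3 of the 5 were higher and 1 (Lama1) lower in Itga8+ MSCs (21.2% and 14.3% of all genes) and in Itga8- BLCs (20.4% and 14.9%) alike, and 2 were higher and 1 (Lama1) lower for Sca-1+ MSCs (11.2% and 9.3%). Lama1, the α chain of embryonic laminin, was at 17.4 to 40.0 CPM in the CD51+CD140a+ libraries, at 0 in all 3 Sca-1+ libraries and at no more than 1.07 CPM in the Alcam+ libraries.

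Of the 6 type IV collagen genes, which form the second network of the basement membrane, 4 (Col4a1, Col4a2, Col4a5 and Col4a6) were lower in Itga8- BLCs than in Sca-1+ MSCs and 0 higher, beside 11.9% and 14.5% of all genes. With CD51+CD140a+ MSCs as the reference, 4 (Col4a3 to Col4a6) were higher and 0 lower in Itga8+ MSCs (21.2% and 14.3% of all genes). None of the 4 exceeded 4.80 CPM in an Itga8+ library, and Col4a6, at 0.0519 to 0.347 CPM there and at 0 in the CD51+CD140a+ libraries, was near the floor. Against the same reference, 3 were higher and 2 lower in Itga8- BLCs (20.4% and 14.9%). Itga8+ MSCs differed from Sca-1+ MSCs in 1 of them, Col4a5, at 0.312 to 3.18 CPM against 45.7 to 103 CPM in the Sca-1+ libraries (log2 fold change -5.45 ± 1.10, edgeR adjusted p of 0.00659). Col4a5 was also at no more than 0.548 CPM in the CD51+CD140a+ libraries, so it was high in Sca-1+ MSCs alone. Col4a1, the most widespread type IV chain together with Col4a2, was at 706 to 1376 CPM in the CD51+CD140a+ libraries and at 10.0 to 93.1 CPM in Itga8- BLCs. The multiplexin Col15a1, a collagen that bridges the basement membrane to the tissue beneath, was at 124 to 155 CPM in the Sca-1+ libraries, at 7.74 to 38.3 CPM in the Alcam+ libraries and at no more than 0.29 CPM in the CD51+CD140a+ libraries.

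Among 9 receptors of laminins and agrin, 2 were lower and 0 higher in Itga8+ MSCs than in Itga8- BLCs, Itga7 and Lrp4, beside 2.16% and 1.66% of all genes. With CD51+CD140a+ MSCs as the reference, 2 were higher and 4 lower in Itga8+ MSCs (21.2% and 14.3%), 3 higher and 2 lower in Itga8- BLCs (20.4% and 14.9%), and 2 higher and 2 lower in Sca-1+ MSCs (11.2% and 9.3%). Against Sca-1+ MSCs, 1 was higher and 2 lower in Itga8+ MSCs (12.9% and 8.89%), and 2 higher and 1 lower in Itga8- BLCs (14.5% and 11.9%). Itga7, the integrin α chain that binds laminin on muscle, was at no more than 0.578 CPM in Itga8+ MSCs and at 2.098 to 19.1 CPM in Itga8- BLCs (log2 fold change -4.71 ± 1.14, edgeR adjusted p of 0.0512). Lrp4, the receptor of agrin, was highest in Itga8- BLCs, at 12.6 to 20.6 CPM, and at no more than 8.49 CPM in the other libraries. Itga6 was at 2.26 to 3.69 CPM in the CD51+CD140a+ libraries and at 8.57 to 56.4 CPM in the other libraries, while Itga3 was at 13.7 to 15.6 CPM and at no more than 4.08 CPM elsewhere. Itga6 and Itga3 thus separated the CD51+CD140a+ libraries from those of bone in opposite directions, whereas Itga7, at 0.516 to 3.78 CPM in the CD51+CD140a+ libraries, overlapped those of both Alcam+ populations. Dystroglycan (Dag1) was at 460.2 to 599 CPM in the CD51+CD140a+ libraries and at 20.7 to 285 CPM in the Alcam+ libraries.

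Laminin α chains bind dystroglycan through a sugar chain, matriglycan, built by a series of enzymes. Of the 13 genes of this series, 0 were called between the Alcam+ populations, and with CD51+CD140a+ MSCs as the reference, 4 were lower and 2 higher in Itga8+ MSCs, beside 14.3% and 21.2% of all genes. B4gat1 was at 105 to 126 CPM in the CD51+CD140a+ libraries and 44.6 to 57.7 CPM in Itga8+ MSCs (log2 fold change -1.19 ± 0.25, edgeR adjusted p of 0.0036). Against Sca-1+ MSCs, 2 were lower and 1 higher in Itga8+ MSCs (8.89% and 12.9% of all genes), and the same numbers held for Itga8- BLCs (11.9% and 14.5%), while 4 were lower and 1 higher in Itga8- BLCs than in CD51+CD140a+ MSCs (14.9% and 20.4%).

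Among 17 other basement membrane components, 4 were higher and 6 lower in Itga8+ than in Sca-1+ MSCs (12.9% and 8.89% of all genes), and 5 higher and 7 lower in Itga8- BLCs (14.5% and 11.9%). Set against CD51+CD140a+ MSCs, 9 were higher and 2 lower in Itga8+ MSCs (21.2% and 14.3%), and 8 higher and 1 lower in Itga8- BLCs (20.4% and 14.9%). Sparc, a collagen-binding protein abundant in bone, was at 26980 to 60120 CPM in Itga8+ MSCs, 61490 to 184300 CPM in Itga8- BLCs, 10560 to 13870 CPM in the Sca-1+ libraries and 3201 to 4298 CPM in the CD51+CD140a+ libraries, an order opposite to that of Lamb1 and Lama4. Its relative Smoc2 was at 589.5 to 776 CPM in Itga8+ MSCs, 900.4 to 1092 CPM in Itga8- BLCs, 229 to 244 CPM in the Sca-1+ libraries and 21.9 to 27.0 CPM in the CD51+CD140a+ libraries. Fibulin-2 (Fbln2), which binds laminin and nidogen, was at 1150 to 1653 CPM in the Sca-1+ libraries and at no more than 2.00 CPM in the CD51+CD140a+ libraries, with 37.6 to 426 CPM in Itga8+ MSCs. Fibulin-1 (Fbln1) was the 1 gene of this list higher in Itga8+ MSCs than in Itga8- BLCs, at 60.9 to 126 CPM against 15.3 to 29.2 CPM (log2 fold change 2.13 ± 0.36, edgeR adjusted p of 0.0069). Smoc1 was the 1 gene of the list lower there, at 9.19 to 24.9 CPM in Itga8+ MSCs against 40.95 to 109.6 CPM in Itga8- BLCs.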

How the data were processed

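RNA of 2000 sorted cells per sample was reverse transcribed and amplified with a SMART-Seq v4 kit, Nextera XT libraries were made, and the paper gives mapping to mm10 with TopHat and Bowtie2. The submitters' processing notes instead list FastQC 0.11.7, Trimmomatic 0.38, HISAT2 2.1.0, SAMtools 1.9 and featureCounts 1.6.3. The annotation release and the strand setting are not given in the sources used here. The authors deposited raw counts of reads per Ensembl gene, 1 table for each of 12 libraries, without normalization. PCR copies cannot be told from separate molecules, so floors cover counting error only.

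Counts were joined by Ensembl identifier, and 49326 of 49585 identifiers had a position in GENCODE M21. All 12 libraries were fitted with edgeR 4.0.16 (quasi-likelihood F-test, TMM) in R 4.3.3 over the 18648 genes that reached 0.5 CPM in any 1 library, and a gene was called at a Benjamini-Hochberg adjusted p (FDR) under 0.1 and a fold change above 2, two-sided. TPM used the union of exons. Ratios had 1 count added to each gene and were tested by exact permutation. Log2 CPM for likeness had a prior count of 2. Alternatives were DESeq2 1.42.0, limma-trend (limma 3.58.1), other scalings and filters, a fit restricted to the populations in question, a replicate block, an FDR of 0.05, 10 counts added to ratios, the longest transcript as length, counts not divided by length, and each library left out. An offset for each library's trend with gene length, and leaving out libraries with over 0.2% mitochondrial counts, were chosen after seeing the data. The scripts were tested on simulated data. Python 3.11.15 with scipy 1.17.1 was used for the ratios.

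The 10 genes, the other gene lists and the tests were chosen with earlier results of these data known. All 10 genes are named, and from the other lists the genes called in at least 3 of the 6 comparisons with at least 10 CPM in their highest population, up to 4 a list, and for each of the 10 the nearest genes by r. Col4a1, Dag1 and Lamb3, the members of list counts, and the marker genes were named outside this rule after their values were seen. Some genes of these lists are not reported here.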

Additional observations from a re-analysis of the deposited data

How the results depend on the processing

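Of the 20 calls of the 10 genes, 14 were kept under every alternative and 0 changed direction, and all 5 ratio tests passed under every one run on them. The counts of genes called moved by more than 1.5 times as follows. Between Itga8+ MSCs and Itga8- BLCs (0) the count was 3 with DESeq2 and with the length offset, 2 with library totals, and 1 with limma-trend, DESeq2's size factors, no filter, or without the pair of libraries rich in mitochondrial counts. Between Itga8+ and Sca-1+ MSCs (3) it was 5 with DESeq2, limma-trend and the length offset. For Sca-1+ against CD51+CD140a+ MSCs (2) it was 4 with DESeq2, limma-trend and the length offset, 7 in the fit of those populations alone, 5 without the mitochondria-rich pair and 0 at an FDR of 0.05. At that FDR 2 genes were called between Itga8+ and CD51+CD140a+ MSCs (4). The share of all genes called was computed for the main fit and for the fit of Sca-1+ and CD51+CD140a+ MSCs alone, and not under the other settings. The cause of these shifts was not tested.

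Differences that were called in neither setting changed sign in 10 cases, the replicate block included. With limma-trend, the log2 fold change in Itga8+ against CD51+CD140a+ MSCs was -0.45 for Lamb2 and -0.72 for Nid2, and that of Hspg2 in Itga8- BLCs against Sca-1+ MSCs was -0.12. Nid2 in Itga8+ against CD51+CD140a+ MSCs was at -0.084 with library totals and -0.0054 with no filter. With the length offset, Hspg2 in Itga8+ against Sca-1+ MSCs was at 0.20 and Lama5 in Itga8- BLCs against Sca-1+ MSCs at 0.015. Without the mitochondria-rich pair, Itga8+ against Sca-1+ MSCs gave 0.25 for Hspg2 and 0.31 for Agrn.

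The Lamb2 share of β chain TPM differed between Itga8+ and CD51+CD140a+ MSCs by 53.5 percentage points, by 64.03 points with counts not divided by length and by 63.5 with the longest transcript as length. With the longest transcript, the difference of CD51+CD140a+ MSCs from Itga8- BLCs in Lamc1 was 0.298 per β chain TPM (against 0.422) and 0.357 per α chain TPM (against 0.763).

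With each library left out in turn, in a fit that lets a pair of remaining libraries share the spread of the others, the genes differing among the 4 populations ranged from 5 to 10. The genes called ranged from 0 to 3 between Itga8+ MSCs and Itga8- BLCs, 2 to 8 between Itga8+ and Sca-1+ MSCs, 2 to 5 between Itga8+ and CD51+CD140a+ MSCs, and 0 to 4 between Sca-1+ and CD51+CD140a+ MSCs. The count for Itga8+ against Sca-1+ MSCs was 8 without Itga8+ replicate 3, and 10 genes differed among the populations without it, against 5 without CD51+CD140a+ replicate 1. Between Itga8+ MSCs and Itga8- BLCs, 3 genes were called without Itga8+ replicate 2, 2 without Itga8- replicate 2 and 1 without Itga8+ replicate 1. Between Itga8+ and CD51+CD140a+ MSCs 2 were called without Itga8+ replicate 1 or 2 or CD51+CD140a+ replicate 3. For Sca-1+ against CD51+CD140a+ MSCs, 0 were called without Sca-1+ replicate 1 or 2 or CD51+CD140a+ replicate 3, 1 without Sca-1+ replicate 3 or CD51+CD140a+ replicate 1 or 2, and 4 without Itga8+ replicate 2. The log2 fold changes below crossed 0. In Itga8+ MSCs against Itga8- BLCs the lowest values, all without Itga8+ replicate 3, and the highest, all without Itga8- replicate 2, were -0.21 and 2.23 for Lama4, -1.44 and 1.97 for Lamb1, -0.68 and 2.69 for Lamb2, -2.46 and 0.84 for Hspg2, and -3.15 and 0.57 for Agrn. In Itga8+ against Sca-1+ MSCs they ran from -0.32 to 0.54 for Lama5, -2.09 to 0.23 for Hspg2 and -2.49 to 0.27 for Agrn. In Itga8+ against CD51+CD140a+ MSCs they ran from -0.44 to 1.26 for Lama2, -1.38 to 1.14 for Lamb2, -0.80 to 0.57 for Nid2 and -0.79 to 1.52 for Hspg2. In Itga8- BLCs against Sca-1+ MSCs they ran from -1.08 to 0.83 for Hspg2 and -0.82 to 1.13 for Agrn.

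Replicate numbers are shared between the populations, and the labels do not say whether they pair the libraries. The deviations of Itga8+ and Itga8- libraries from their population means correlated at 0.204, -0.582 and -0.503 for numbers 1, 2 and 3. In the other comparisons these correlations lay between -0.172 and 0.16. With 3 libraries a population, they cannot decide whether the libraries are paired. With the replicate number as a block, 6 genes differed among the populations, and the genes called were 0 between Itga8+ MSCs and Itga8- BLCs, 2 between Itga8+ and Sca-1+ MSCs, 3 between Itga8+ and CD51+CD140a+ MSCs, 5 between Itga8- BLCs and each other MSC population, and 1 between Sca-1+ and CD51+CD140a+ MSCs. The block put Nid2 in Itga8+ against CD51+CD140a+ MSCs at -0.0031.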
